A study of Mus musculus with 45 samples.

Results

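The response of mouse macrophages to interferon-γ (IFN-γ) at 4 h was measured by setting the 3 libraries of cells given IFN-γ at 100 ng/ml for 4 h against the 3 libraries of untreated cells. All cells were primary macrophages grown from bone marrow of C57BL/6 mice, a wild-type inbred strain, in medium conditioned by L929 cells (a source of the macrophage growth factor CSF-1), and were taken on day 7 of differentiation. These 6 libraries of poly(A) RNA belong to a table of 21 libraries, in a series of 45 samples. The cells given IFN-γ for 2 h, also 3 libraries, served as an earlier point. The other 12 libraries of the table were given IL-4 at 10 ng/ml alone or with IFN-γ. They entered only through the choice of genes, the rescaling, and the shared estimates of the spread and of differences between replicate numbers. Members of the comparison were all genes with at least 1 CPM (a gene's reads scaled to a common total of assigned reads) in at least 3 of the 21 libraries, which kept 11380 of 24421 genes. The labels do not say whether the replicates R1, R2 and R3 came from separate animals or cultures, so p-values measure the spread between these libraries, which may be technical.

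IFN-γ is made by T cells and natural killer cells and is the classical activator of macrophages. It binds a receptor of the chains IFNGR1 and IFNGR2, and the kinases JAK1 and JAK2 then activate transcription factors by phosphorylation. These bind gamma-activated sites in DNA, and factors made early, above all IRF1, act on later genes through interferon-stimulated response elements. The known outcome is a cell better able to kill intracellular microbes, present antigen and recruit lymphocytes.

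Levels below are CPM after median-ratio rescaling, in the order R1, R2, R3. A log2 change is the difference of log2(CPM + 1), IFN-γ at 4 h minus untreated, with its standard error, fitted with the replicate number as a block. The added 1 makes it smaller than the ratio of the levels for genes near 0. A gene rose or fell where limma's adjusted p was under 0.05.

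The libraries held 41726425 to 45634914 reads after IFN-γ and 28920801 to 80028327 reads in untreated cells. Untreated R2 and R3 stood apart: Rn45s, the ribosomal RNA precursor, took 43.2% and 15.7% of their reads, against 0.151% in untreated R1 and at most 0.907% after IFN-γ. Rmrp, Rpph1 and Lars2 followed the same 2 libraries, and without these 2 libraries the 4 genes were not called and their log2 changes were 0.50 to 0.86. Over 21 macrophage genes the summed level was 32700 to 47090 CPM after IFN-γ and 37770 to 56100 CPM in untreated cells. Csf1r, the CSF-1 receptor, was at 5379, 2724 and 4928 CPM after IFN-γ, against 5003, 2712 and 4813 CPM in untreated cells. Not all members were high: Nr1h3 was at 7.27, 4.06 and 2.94 CPM after IFN-γ, against 10.3, 5.43 and 4.63 CPM in untreated cells. The summed level of 11 neutrophil genes was 241 to 626 CPM after IFN-γ and 219 to 403 CPM in untreated cells. For 9 B-cell genes it was 4.55 to 5.43 CPM and 3.40 to 4.23 CPM, with Pax5 at 0 in all 6 libraries, and for 14 T- and NK-cell genes 13.1 to 33.5 CPM and 5.97 to 27.4 CPM. For 12 erythroid and megakaryocyte genes it was 36.9 to 83.8 CPM and 45.2 to 75.1 CPM, nearly all from Pf4, and 5 of them, among them Hba-a1, were at 0 in all 6 libraries. For 10 endothelial genes it was 92.0 to 139 CPM after IFN-γ and 72.3 to 142.5 CPM in untreated cells, mostly Vwf, and 2 of the 4 tested members rose, neither by a log2 of 1. The sums were 6.18 to 14.3 CPM and 4.60 to 5.98 CPM for 10 dendritic-cell genes, 3.02 to 6.39 CPM and 2.27 to 9.67 CPM for 10 mast-cell and basophil genes, and 12.15 to 20.5 CPM and 10.4 to 20.5 CPM for 10 fibroblast and stroma genes.

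A large part of the measured transcriptome differed between cells given IFN-γ for 4 h and untreated cells. In bulk RNA, fewer cells of a type and less RNA per cell cannot be told apart. Of the 11380 genes 7203 were called (63.3%): 3701 rose (32.5%) and 3502 fell (30.8%), or 2429 and 2029 without the replicate block, and the libraries of the 2 groups did not overlap for 5214 genes (45.8%). Most of these changes were small. A log2 change of at least 1 was reached by 1046 genes that rose (9.19%) and 587 that fell (5.16%). Large changes were more often rises: 152 genes rose and 22 fell by a log2 of at least 3, and 18 rose and 0 fell by a log2 of at least 6. The measure itself limits falls, since a fall in log2(CPM + 1) cannot exceed the untreated value. The median untreated level of the 587 genes was 31.0 CPM, so falls of 6 were out of reach for many of them. The range ran from -5.06 for S1pr1 to 10.36 for Cxcl9. The 1046 genes together took 27.1%, 19.5% and 23.7% of reads after IFN-γ, leaving out Rn45s and Lars2, against 6.60%, 6.89% and 6.15% in untreated cells. The 587 genes took 1.14%, 1.75% and 1.32% after IFN-γ and 4.89%, 5.75% and 5.31% in untreated cells.

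The split between rises and falls depends on scaling. In the CPM as deposited the median log2 change of all genes was 0.10, with 2743 genes higher and 1572 lower. In CPM recomputed without Rn45s and Lars2 it was -0.28, with 2060 higher and 6147 lower. The counts past a log2 of 1 were 1178 and 439 as deposited, and 753 and 1062 when recomputed. Counts of many lists moved with this scaling or with the block, and for the lists that moved most the recomputed and unblocked counts are given beside the main ones below, rises first. Over all genes tested 32.5% rose and 30.8% fell, and these are the shares beside which each list count below is to be read.

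**Figure D1:**
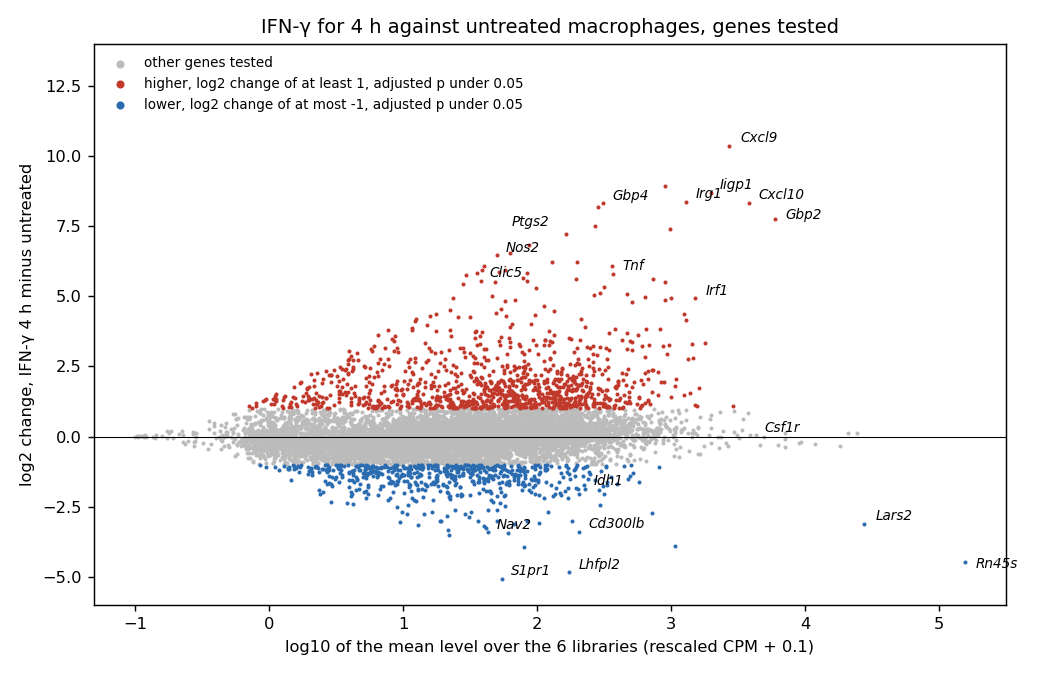
Each point is 1 of the 11380 genes tested, with the log10 mean level over the 6 libraries (rescaled CPM + 0.1) on the x axis and the log2 change of IFN-γ at 4 h against untreated on the y axis. Called genes past a log2 of 1 are red where higher (1046) and blue where lower (587); rises run up to Cxcl9 at 10.36 and falls down to S1pr1 at -5.06, and Rn45s and Lars2 stand alone at the right.

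Genes of the IFN-γ signalling chain changed at several steps. Of 25 genes of receptors and JAK-STAT signalling, 17 rose and 5 fell, and the list's median log2 change was 1.14, against 0.00 for all genes tested. Ifngr1 fell (-0.85 ± 0.08; mean 95.3 CPM after IFN-γ, against 171 CPM in untreated cells), Ifngr2 was not called (0.00 ± 0.07), Jak2 rose by 1.77 ± 0.09 and Jak1 by 0.43 ± 0.06; these 4 genes were named after their values were seen. Without the block the adjusted p was 0.058 for Ifngr1 and 0.19 for Jak1, and Jak1 was not called in CPM recomputed without Rn45s and Lars2. In the list 3 genes fell without R3 in all groups and 2 without the block.

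Several receptors for other cytokines rose. Il12rb1, a chain of the IL-12 and IL-23 receptors, went up the most of the list, with 47.2, 50 and 42.1 CPM after IFN-γ, against 1.11, 0.298 and 0.294 CPM in untreated cells (log2 change 4.96 ± 0.12, adjusted p = 4.2e-15). It had been at only 3.30, 3.16 and 2.84 CPM at 2 h. Il15ra, the chain that presents IL-15, rose by 3.07 ± 0.10, Il4ra, the IL-4 receptor chain, by 2.33 ± 0.18, and Il13ra1, its partner for IL-13, by 2.03 ± 0.12. Among the abundant members, 2 were not called: Stat6, the factor of IL-4 signalling (-0.11 ± 0.07), and Il6st, the shared gp130 chain (0.16 ± 0.11).

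Inhibitors of the same pathway rose in 10 of 17 cases and fell in 3. Socs1, which blocks JAK kinases, had 127, 99.1 and 114 CPM after IFN-γ, against 1.30, 0.836 and 0.509 CPM in untreated cells (log2 change 5.94 ± 0.19, adjusted p = 1.4e-13). Socs3, a relative that acts on gp130 receptors, had 708, 174 and 680.0 CPM after IFN-γ, against 17.7, 7.70 and 13 CPM in untreated cells (log2 change 5.06 ± 0.27, adjusted p = 7.1e-11). Neither group of libraries overlapped the other in these 2 genes. Cish, another member of the family, rose by 3.97 ± 0.20, and Ptpn2, a phosphatase of JAK and STAT proteins, by 1.77 ± 0.10. Usp18, which restrains the type I interferon receptor, rose by 1.67 ± 0.30, though without the block its adjusted p was 0.072. Pias2 (0.14 ± 0.08) and Pias4 (0.01 ± 0.12), of the PIAS family of STAT inhibitors, were not called.

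Interferon regulatory factors, the DNA-binding proteins of the second wave, rose in 6 of 8 cases and fell in 1 (0 without the block). Irf1 led with 3709, 1869.9 and 3153 CPM after IFN-γ, against 121, 76.9 and 81.0 CPM in untreated cells (log2 change 4.92 ± 0.11, adjusted p = 1.5e-15). Irf8, a factor of myeloid identity that pairs with IRF1, had 2053, 1312 and 1567 CPM after IFN-γ, against 276, 165 and 201 CPM in untreated cells (log2 change 2.94 ± 0.09, adjusted p = 1.4e-13). In both genes the lowest IFN-γ library exceeded the highest untreated one several times over. Irf7 rose by 2.01 ± 0.17, Irf2 by 1.40 ± 0.11 and Irf5 by 1.35 ± 0.07. Irf9, the DNA-binding part of the type I interferon complex ISGF3, was at 78.0, 71.7 and 68.2 CPM after IFN-γ, against 68.1, 81.1 and 64.1 CPM in untreated cells, and was not called (log2 change 0.03 ± 0.08, adjusted p = 0.73). Its libraries overlapped.

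Other transcription factors moved too. Batf2, a bZIP factor of classical activation, had 592, 187 and 393 CPM after IFN-γ, against 3.84, 4.30 and 3.01 CPM in untreated cells (log2 change 6.24 ± 0.27, adjusted p = 6.7e-12), with no overlap. Maff (3.59 ± 0.30), Batf3 (2.60 ± 0.16), Junb (2.54 ± 0.27) and Cebpb (2.35 ± 0.25) rose as well, among 13 bZIP factors that rose and 4 that fell of 21 (2 fell without R1 in all groups and 1 without the block). Cebpa, a factor of myeloid differentiation, fell, with 25.8, 22.7 and 31.6 CPM after IFN-γ, against 112, 35.3 and 60.6 CPM in untreated cells (log2 change -1.20 ± 0.22, adjusted p = 1.5e-04). Nfe2l2, the antioxidant regulator NRF2, was not called (0.16 ± 0.15).

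Genes of NF-κB subunits and inhibitors rose in 13 of 14 cases, 10 of them by a log2 of at least 1, with a median of 1.83. Tnfaip3, the ubiquitin-editing inhibitor A20, had 589, 143 and 471 CPM after IFN-γ, against 37.1, 8.42 and 18 CPM in untreated cells (log2 change 4.18 ± 0.19, adjusted p = 1.3e-11). Nfkbie, an IκB protein, had 326, 95.2 and 211 CPM after IFN-γ, against 33.3, 8.89 and 14.3 CPM in untreated cells (log2 change 3.44 ± 0.19, adjusted p = 8.0e-11). The libraries did not overlap in these 2 genes, and R2 was the lowest library of both groups in each of them. Tnip3 (3.43 ± 0.25), Bcl3 (3.01 ± 0.15) and Nfkbia (2.75 ± 0.19) rose with them, and Tnip2 was not called (0.18 ± 0.08).

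Of 30 immediate early and mRNA-decay genes, 20 rose and 3 fell. Zfp36, tristetraprolin, which destabilises cytokine mRNAs, had 1090.2, 409 and 1248 CPM after IFN-γ, against 92.7, 66.5 and 71.9 CPM in untreated cells (log2 change 3.41 ± 0.22, adjusted p = 5.7e-10). Dusp10, a phosphatase of stress kinases, rose by 3.80 ± 0.16. The growth-response factors Egr2 (3.30 ± 0.46) and Egr3 (2.78 ± 0.19) rose with a wide spread in Egr2, which was at 130.1, 7.06 and 76.9 CPM after IFN-γ. Zfp36l1 (0.06 ± 0.16) and Zfp36l2 (-0.38 ± 0.26), relatives of Zfp36, were not called.

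**Figure D2:**
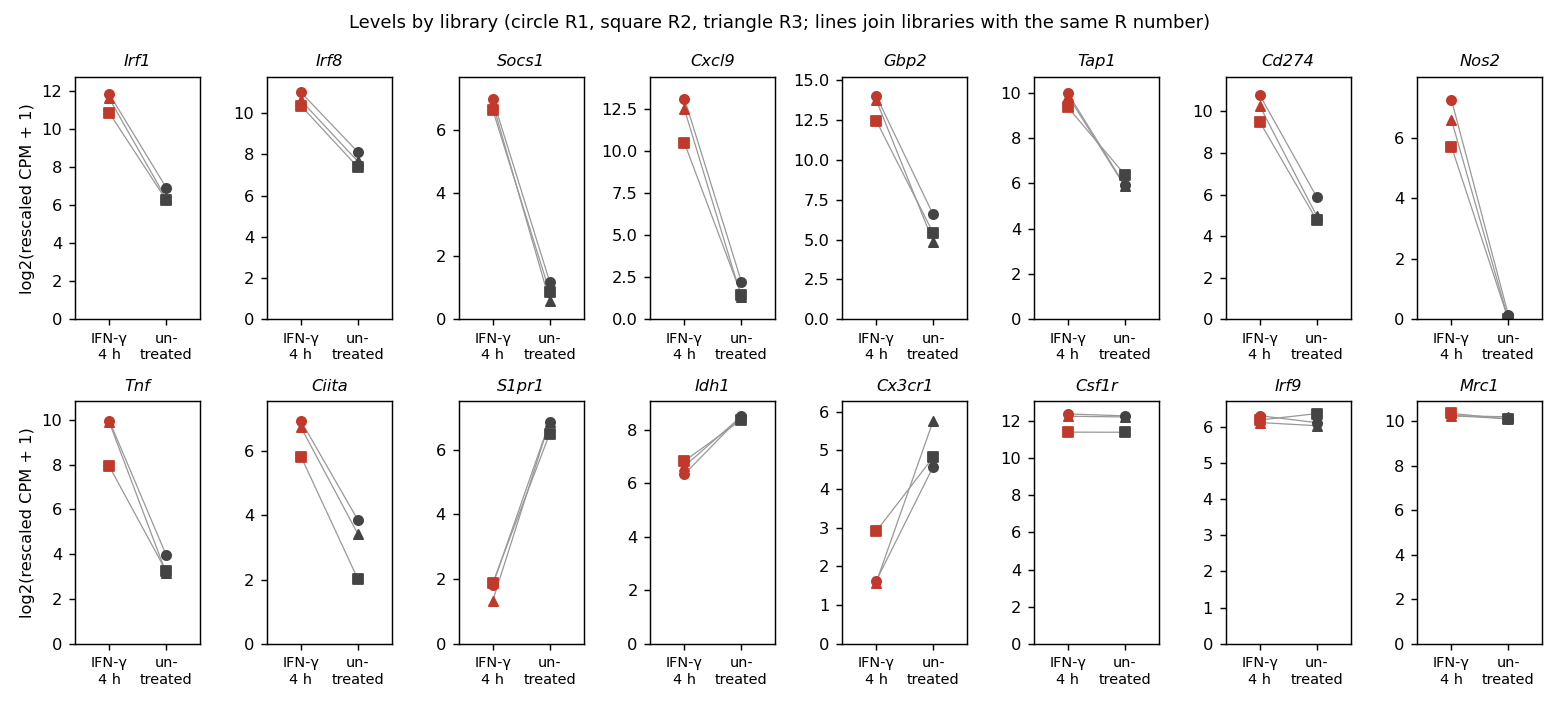
Levels of 16 genes as log2(rescaled CPM + 1), with the 3 libraries of IFN-γ at 4 h left (red) and the 3 untreated libraries right (grey); lines join libraries with the same R number. Irf1, Irf8, Socs1, Cxcl9, Gbp2, Tap1, Cd274, Nos2, Tnf and Ciita stand higher after IFN-γ in all 3 lines, S1pr1, Idh1 and Cx3cr1 lower, and the libraries of Csf1r and Irf9 overlap.

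Promoters of leading genes are shown so that the letters of known interferon motifs can be read beside the changes. RefSeq (GRCm38.p6) start sites were used, with the 250 bases before each start, and 2 motifs were searched on both strands: TTCNNNGAA, the gamma-activated site consensus, and GAAA, any 2 bases, GAAA, the core of the interferon-stimulated response element. Of 76 named genes with a log2 change of at least 3, 56 had a window, of which 23 held either motif and 33 neither. The 8 shown were taken only from windows that held a motif, so that each holds one was set by the choice. Irf1, Socs1 and Gbp2 come first and the others follow by log2 change. Genes without a motif in the window, whatever their change, were passed over. Absence from the 8, as for Iigp1, does not show that a window lacked a motif, since 23 held one. The order by log2 change holds among the genes shown and does not rank all genes with a motif. The 8 are written 5′ to 3′ along the gene, ending at the base before the start, with the motif letters in capitals.
Irf1, chr11:53769764-53770013, plus strand: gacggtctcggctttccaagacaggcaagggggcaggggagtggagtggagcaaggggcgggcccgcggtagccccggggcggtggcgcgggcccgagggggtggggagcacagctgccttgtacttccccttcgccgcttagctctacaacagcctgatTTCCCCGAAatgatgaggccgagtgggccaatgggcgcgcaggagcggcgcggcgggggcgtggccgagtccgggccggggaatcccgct
Socs1, chr16:10785537-10785786, minus strand: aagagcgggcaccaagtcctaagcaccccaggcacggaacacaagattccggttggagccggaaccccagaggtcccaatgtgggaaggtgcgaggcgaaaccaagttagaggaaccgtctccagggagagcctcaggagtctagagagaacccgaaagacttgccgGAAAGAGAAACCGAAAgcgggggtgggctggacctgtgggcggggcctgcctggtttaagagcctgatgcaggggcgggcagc
Gbp2, chr3:142620413-142620662, plus strand: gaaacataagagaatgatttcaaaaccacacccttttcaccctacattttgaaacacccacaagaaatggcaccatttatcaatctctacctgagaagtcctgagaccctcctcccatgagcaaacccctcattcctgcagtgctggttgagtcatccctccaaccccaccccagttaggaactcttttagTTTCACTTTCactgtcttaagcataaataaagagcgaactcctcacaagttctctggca
Serpina3g, chr12:104235897-104236146, plus strand: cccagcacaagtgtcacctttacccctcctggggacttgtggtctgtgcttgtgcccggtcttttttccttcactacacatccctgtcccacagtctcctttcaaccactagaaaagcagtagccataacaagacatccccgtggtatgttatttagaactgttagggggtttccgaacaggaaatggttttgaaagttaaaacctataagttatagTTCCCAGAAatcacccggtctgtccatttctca
Cxcl10, chr5:92348890-92349139, minus strand: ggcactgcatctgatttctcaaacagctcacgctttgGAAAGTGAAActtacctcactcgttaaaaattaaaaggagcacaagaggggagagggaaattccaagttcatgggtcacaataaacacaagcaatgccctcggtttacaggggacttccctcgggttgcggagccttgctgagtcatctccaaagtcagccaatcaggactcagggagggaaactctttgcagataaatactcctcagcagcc
Serpina3f, chr12:104214294-104214543, plus strand: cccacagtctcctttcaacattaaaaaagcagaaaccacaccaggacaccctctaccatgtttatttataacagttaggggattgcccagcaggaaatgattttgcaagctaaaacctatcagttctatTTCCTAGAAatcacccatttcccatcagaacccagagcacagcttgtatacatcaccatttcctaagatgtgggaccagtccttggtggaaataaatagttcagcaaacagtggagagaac
Gbp5, chr3:142496684-142496933, plus strand: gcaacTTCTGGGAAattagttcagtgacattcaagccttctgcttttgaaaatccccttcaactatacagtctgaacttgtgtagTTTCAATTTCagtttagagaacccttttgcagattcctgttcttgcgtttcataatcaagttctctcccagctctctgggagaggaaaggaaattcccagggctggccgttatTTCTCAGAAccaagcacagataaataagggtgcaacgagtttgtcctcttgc
Tgtp1, chr11:48992247-48992496, minus strand: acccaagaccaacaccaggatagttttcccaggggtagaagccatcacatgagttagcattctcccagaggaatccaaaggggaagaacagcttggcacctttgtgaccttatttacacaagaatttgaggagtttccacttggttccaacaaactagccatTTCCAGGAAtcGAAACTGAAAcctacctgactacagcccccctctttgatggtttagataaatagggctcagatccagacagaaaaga

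The Irf1 window held a single gamma-activated site consensus at -90 to -82 (base -1 being the last before the start). Socs1 carried 2 overlapping response-element cores, at -83 to -74 and -77 to -68. In Gbp2 the core lay at -59 to -50 and in Cxcl10 at -213 to -204. Serpina3g and Serpina3f, neighbours on chromosome 12, each held 1 gamma-activated site consensus, at -33 to -25 and at -121 to -113. Gbp5 held 3 motifs and Tgtp1 one of each kind, at -88 to -80 and -77 to -68. Over sets of genes the shares differed: the gamma-activated site consensus stood in 17.0% and the core in 19.0% of 147 windows of genes with a log2 change of at least 3. In the 1064 windows of genes with a change of at least 1 these shares were 8.65% and 8.55%. In 581 windows of genes that fell by at least 1 they were 4.99% and 2.24%. In 4173 windows of genes not called they were 5.54% and 2.35%, and in 11546 windows of genes tested 6.03% and 2.9%. Over all 32851 windows they were 7.02% and 2.98%. Among lists that rose, the core stood in 11 of 12 windows of guanylate-binding proteins and immunity-related GTPases, in 27.5% of 51 windows of the antiviral genes and in 21.4% of 14 windows of MHC class I genes. It stood in 0 of 7 windows of immunoproteasome genes and 0 of 14 windows of NF-κB genes. In the same order of lists, the gamma-activated site consensus stood in 7, 7, 1, 1 and 2 windows. A match is a match of letters and not a bound site, and the windows of one gene can overlap.

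Chemokines for T cells rose above low untreated levels. Cxcl9, a ligand of CXCR3 (chromosome 5, 92321347 to 92328079, GRCm38, GENCODE), had 9071, 1445 and 5811 CPM after IFN-γ, against 3.76, 1.79 and 1.53 CPM in untreated cells (log2 change 10.36 ± 0.32, adjusted p = 1.2e-13). Cxcl10, of the same receptor, had 10368, 3943 and 8606 CPM after IFN-γ, against 32.7, 20.2 and 13.5 CPM in untreated cells (log2 change 8.34 ± 0.25, adjusted p = 1.0e-13). Cxcl11, likewise a CXCR3 ligand, had 110.2, 33.2 and 89.1 CPM after IFN-γ, against 0.135, 0.179 and 0.0803 CPM in untreated cells (log2 change 5.95 ± 0.27, adjusted p = 9.4e-12). In all 3 the groups lay far apart, which was a condition of naming for the largest rises, and IFN-γ R2 was the lowest treated library. Of 17 chemokine genes, 12 rose and 2 fell (1 without the block), with a median of 2.12. The monocyte attractants Ccl12 (4.84 ± 0.36) and Ccl8 (4.28 ± 0.25) rose. Ccl5, an attractant of T cells and monocytes, rose by 3.56 ± 0.32. Ccl3 had 135, 16.9 and 86.5 CPM after IFN-γ, against 107, 55.0 and 56.8 CPM in untreated cells, and its overlapping libraries gave no call (log2 change -0.24 ± 0.32, adjusted p = 0.53). Without IFN-γ R2, the lowest library, it was called higher (log2 change 0.40, adjusted p = 0.042), and likewise without R2 in all groups (0.46, adjusted p = 0.020).

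Among cytokines, 15 of 20 genes rose and 1 fell. Tnf, tumour necrosis factor, had 997, 242 and 951 CPM after IFN-γ, against 14.6, 8.48 and 7.95 CPM in untreated cells (log2 change 5.81 ± 0.31, adjusted p = 6.0e-11). At 2 h it had been at 111, 26.7 and 61.4 CPM. Tnfsf10, the death ligand TRAIL, rose by 4.65 ± 0.23, Il27, a subunit of IL-27, by 3.88 ± 0.22, Il1rn, the IL-1 receptor antagonist, by 3.22 ± 0.18, and Csf1 by 2.80 ± 0.16. Tgfb1 (0.12 ± 0.10) and Vegfa (0.39 ± 0.17) were not called.

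Every tested guanylate-binding protein and immunity-related GTPase rose. These enzymes attack the vacuoles in which bacteria and parasites live. All 18 rose by a log2 of at least 1, with a median of 5.57, and did so under each scaling tried. Gbp2 had 16229, 5571 and 13663 CPM after IFN-γ, against 94.0, 41.7 and 28.3 CPM in untreated cells (log2 change 7.77 ± 0.31, adjusted p = 2.2e-12). Iigp1, the GTPase Irga6, had 5131, 2361 and 4302 CPM after IFN-γ, against 14.3, 6.92 and 5.03 CPM in untreated cells (log2 change 8.69 ± 0.27, adjusted p = 1.2e-13). Gbp4 went to 753, 434 and 672 CPM, against 1.46, 0.836 and 0.509 CPM in untreated cells (log2 change 8.32 ± 0.22, adjusted p = 1.2e-14). No library of one group reached the range of the other. Gbp6 (7.49 ± 0.29), Gbp5 (7.42 ± 0.17), Tgtp1 (6.53 ± 0.30) and Tgtp2 (6.21 ± 0.29) followed. Genes of this family and the pairs Tgtp1 with Tgtp2 and Serpina3f with Serpina3g are close copies of each other, so the reads of each member are uncertain where counting could divide them.

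Serpina3g, a protease inhibitor of the serpin family, was the second largest rise, with 2432, 1173 and 1781 CPM after IFN-γ, against 3.30, 2.98 and 1.49 CPM in untreated cells (log2 change 8.94 ± 0.19, adjusted p = 1.4e-15). Serpina3f had 850.2, 291 and 548 CPM after IFN-γ, against 0.947, 0.955 and 0.468 CPM in untreated cells (log2 change 8.18 ± 0.20, adjusted p = 5.4e-15). Both were nearly silent in untreated cells, and every IFN-γ library was far above them.

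Antiviral genes known from the type I interferon response rose in 48 of 49 cases, with a median of 1.68, beside 5.57 in the GTPases. Ifit2, which binds viral RNA, had 1757, 2192 and 1285 CPM after IFN-γ, against 198, 267 and 103 CPM in untreated cells (log2 change 3.27 ± 0.25, adjusted p = 5.2e-09). Samhd1, a nucleotide hydrolase that limits retroviruses, had 4453, 2002 and 3383 CPM after IFN-γ, against 342, 298 and 277 CPM in untreated cells (log2 change 3.35 ± 0.18, adjusted p = 6.0e-11). The groups did not overlap in either. Ifitm1 (3.78 ± 0.20), Slfn1 (2.82 ± 0.10) and Slfn5 (2.78 ± 0.27) were the other leading members. Ifi27l2a was not called, at 70.2, 259 and 77.2 CPM after IFN-γ, against 43.6, 247 and 89.3 CPM in untreated cells (log2 change 0.18 ± 0.18, adjusted p = 0.4), with R2 the highest library of both groups. Without the block 34 of the 49 were called.

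Of 27 genes of ubiquitin-like conjugation, TRIM and PARP families, 25 rose and 1 fell. Isg15, the ubiquitin-like modifier, had 208, 240.4 and 127 CPM after IFN-γ, against 32.5, 58.6 and 20.6 CPM in untreated cells (log2 change 2.41 ± 0.23, adjusted p = 1.2e-07), and Herc6, its ligase in mice, rose by 3.0 ± 0.17. The PARP enzymes Parp14 (2.79 ± 0.20) and Parp11 (2.30 ± 0.07) and the PARP9 partner Dtx3l (2.47 ± 0.18) rose. Trim25, an activator of the RNA sensor RIG-I, was not called (-0.07 ± 0.10).

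Genes of antigen presentation on MHC class I rose together. Of 19 genes 18 rose, 11 of them by a log2 of at least 1. Tap1, a chain of the peptide transporter, had 1007, 654 and 936 CPM after IFN-γ, against 59.2, 82.6 and 57.3 CPM in untreated cells (log2 change 3.68 ± 0.28, adjusted p = 6.0e-09). Nlrc5, the transactivator of class I genes, had 648, 383 and 557 CPM after IFN-γ, against 52.6, 66.6 and 50.8 CPM in untreated cells (log2 change 3.18 ± 0.28, adjusted p = 3.8e-08). Both were separated between groups. Tap2 (2.77 ± 0.15), the peptide editor Tapbpl (2.94 ± 0.10) and the class I gene H2-Q4 (2.29 ± 0.12) rose, and the chaperone Canx was not called (0.14 ± 0.09). Copies of class I genes are alike enough that reads of H2-Q4 are uncertain.

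Among proteasome genes the median log2 change was 1.85 for the immunoproteasome and its activator and 0.28 for the constitutive particle. All 6 genes of the immunoproteasome and its activator rose by a log2 of at least 1. Psmb9 had 141, 119 and 138 CPM after IFN-γ, against 24.2, 32.5 and 20.7 CPM in untreated cells (log2 change 2.34 ± 0.20, adjusted p = 2.0e-08), Psmb10 rose by 2.08 ± 0.09, Psmb8 by 2.00 ± 0.12, Psme2 by 1.71 ± 0.14 and Psme1 by 1.20 ± 0.09. Of the 29 genes of the constitutive particle, 21 rose and 1 fell, but only Psma3 and Psma5 by a log2 of at least 1, and when CPM was recomputed without Rn45s and Lars2 the count was 9 and 7. Without the block 10 rose and 0 fell. Without R3 in all groups 13 rose. Psma3, a subunit of the outer ring, had 232, 199 and 193 CPM after IFN-γ, against 70.2, 90.4 and 61.1 CPM in untreated cells (log2 change 1.5 ± 0.11, adjusted p = 5.3e-09), and Psma5 rose by 1.23 ± 0.10. Psmd1 (-0.11 ± 0.06) and Psmd2 (0.12 ± 0.06), of the regulatory cap, were not called.

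In MHC class II the regulator and genes it controls both rose. Ciita, the master activator of class II genes, had 122, 56.1 and 106 CPM after IFN-γ, against 13.5, 3.04 and 9.72 CPM in untreated cells (log2 change 3.41 ± 0.11, adjusted p = 2.6e-13). It was at 22.3, 7.35 and 18.2 CPM at 2 h. H2-DMa, the peptide exchanger, had 87.1, 54.0 and 75.2 CPM after IFN-γ, against 28.1, 16.2 and 20.5 CPM in untreated cells (log2 change 1.70 ± 0.07, adjusted p = 6.8e-12). Cd74, the invariant chain, had 653, 129 and 322 CPM after IFN-γ, against 293, 57.5 and 140.0 CPM in untreated cells (log2 change 1.17 ± 0.12, adjusted p = 3.3e-07), and H2-Ab1, a class II chain, rose by 0.94 ± 0.16. The last 2 genes differed more between replicate numbers than between groups, so that their libraries overlapped and without the block their adjusted p was 0.31 for Cd74 and 0.32 for H2-Ab1. Of 15 genes 11 rose and 3 fell, but 1 fell without R1 or R3 in all groups or without untreated R2 and R3, and 5 rose and 0 fell without the block. Ctss, the protease that trims the invariant chain, was not called (0.18 ± 0.10).

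Surface molecules that speak to T cells went in both directions. Of 21 costimulation and checkpoint genes 13 rose (61.9%) and 8 fell (38.1%), or 12 and 3 without the block. Past a log2 of 1, 12 rose and 3 fell. The members named here were chosen by size of change and all rose. Cd274, the checkpoint ligand PD-L1, had 1777, 728 and 1231 CPM after IFN-γ, against 58.7, 26.6 and 30.8 CPM in untreated cells (log2 change 4.97 ± 0.22, adjusted p = 6.2e-12). Cd40, the receptor for helper T cells, had 963, 299 and 576 CPM after IFN-γ, against 18, 11.2 and 10.2 CPM in untreated cells (log2 change 5.32 ± 0.19, adjusted p = 4.9e-13). Icam1, an adhesion molecule that binds LFA-1, had 3395, 1009 and 2709 CPM after IFN-γ, against 138, 68.9 and 107 CPM in untreated cells (log2 change 4.37 ± 0.14, adjusted p = 1.6e-13). None of the 3 genes had overlapping libraries. Cd69 (5.65 ± 0.29) and Slamf8 (5.63 ± 0.19) rose by still larger steps.

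Of 4 receptors for antibody named here, all rose. Fcgr4, an activating IgG receptor, had 1528, 879 and 1202 CPM after IFN-γ, against 75.9, 104 and 68.5 CPM in untreated cells (log2 change 3.83 ± 0.24, adjusted p = 5.7e-10). Fcgr1, the high-affinity IgG receptor, had 1369, 1024 and 1294 CPM after IFN-γ, against 222, 289.8 and 198 CPM in untreated cells (log2 change 2.38 ± 0.18, adjusted p = 5.1e-09). Both were separated between groups. Fcgr3 (1.56 ± 0.09) and the inhibitory Fcgr2b (1.31 ± 0.18) rose less. Cd163, the haemoglobin scavenger receptor, fell, with 4.44, 3.74 and 5.12 CPM after IFN-γ, against 26, 18.9 and 25.0 CPM in untreated cells (log2 change -2.15 ± 0.16, adjusted p = 3.0e-09). Cd68 (0.12 ± 0.09) and the mannose receptor Mrc1 (0.15 ± 0.12) were not called. Of the whole list of 23 Fc, scavenger and phagocytic receptors, 8 rose (34.8%) and 9 fell (39.1%). The rises stood near the 32.5% of all genes tested, and the falls were above the 30.8%. The counts became 6 and 12 in CPM recomputed without Rn45s and Lars2 and 5 and 2 without the block, and 5 fell without R1 or R3 in all groups or without untreated R3.

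Complement genes rose in 9 of 15 cases and fell in 3, or 8 and 5 in CPM recomputed without Rn45s and Lars2 and 5 and 2 without the block. Cfb, factor B of the alternative pathway, had 189, 62.5 and 82.7 CPM after IFN-γ, against 7.36, 3.34 and 2.53 CPM in untreated cells (log2 change 4.32 ± 0.18, adjusted p = 2.8e-12). C3, the central component, had 1595, 229 and 703 CPM after IFN-γ, against 196, 33.9 and 54.0 CPM in untreated cells (log2 change 3.14 ± 0.18, adjusted p = 2.1e-10). R1 was the highest and R2 the lowest treated library in both. C4b (2.35 ± 0.17) and C1ra (1.82 ± 0.20) rose, and C5ar1, the receptor for C5a, fell (-1.05 ± 0.17).

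Sensors of microbes went in both directions. Of 48 pattern recognition genes 26 rose and 12 fell, or 21 and 20 in CPM recomputed without Rn45s and Lars2. Ifi47, an immunity-related GTPase listed here, rose by 4.94 ± 0.27. Of the PYHIN family of DNA sensors, 4 members rose: Ifi205 (4.54 ± 0.15), Mnda (3.38 ± 0.35), Ifi203 (3.27 ± 0.29) and, outside the naming rule, Ifi204 (2.83 ± 0.30). Nod1, a sensor of bacterial cell wall, had 409, 215 and 326 CPM after IFN-γ, against 35.0, 20.8 and 24.1 CPM in untreated cells (log2 change 3.51 ± 0.14, adjusted p = 2.8e-12), with no overlap. Tlr7 (-0.18 ± 0.08) and Clec7a (0.31 ± 0.21) were not called.

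Enzymes that make antimicrobial small molecules rose above low untreated levels. Nos2, inducible nitric oxide synthase (chromosome 11, 78920787 to 78960254), had 151, 51.1 and 95.0 CPM after IFN-γ, against 0.108, 0 and 0 CPM in untreated cells (log2 change 6.46 ± 0.21, adjusted p = 2.3e-13). It was at 4.02, 2.01 and 2.35 CPM at 2 h. Irg1, also named Acod1, which makes itaconate, had 4166, 1250.0 and 2348 CPM after IFN-γ, against 12.4, 4.78 and 3.39 CPM in untreated cells (log2 change 8.37 ± 0.33, adjusted p = 1.8e-12). In both, no untreated library came near the IFN-γ range. Gch1, which supplies the cofactor of nitric oxide synthase, rose by 1.85 ± 0.18, and Odc1, of polyamine synthesis, by 1.51 ± 0.13. Arg1, the arginase of alternative activation, stayed near 0, at 0.0549, 0.192 and 0.0539 CPM after IFN-γ, against 0.0271, 0.537 and 0.201 CPM in untreated cells (log2 change -0.17 ± 0.40, adjusted p = 0.73). Arg2 rose by 1.5 ± 0.37, but the adjusted p was 0.059 without untreated R2 and R3. Asl (-0.11 ± 0.07) and Qdpr (0.00 ± 0.09) were not called, and 8 of 14 genes rose with 0 falls, or 4 falls in CPM recomputed without Rn45s and Lars2.

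Of 17 genes of prostaglandins and lipid mediators 8 rose (47.1%) and 6 fell (35.3%), beside 32.5% and 30.8% of all genes tested. The counts were 7 and 8 in CPM recomputed without Rn45s and Lars2 and 4 and 3 without the block. Ptgs2, cyclooxygenase 2, had 659, 61.3 and 254 CPM after IFN-γ, against 0.676, 0.179 and 0.535 CPM in untreated cells (log2 change 7.24 ± 0.39, adjusted p = 8.3e-11). IFN-γ R1 stood about an order of magnitude above R2, yet the lowest treated library was far above the untreated ones. Pla2g4a, the phospholipase that frees arachidonate, had 157, 113 and 141 CPM after IFN-γ, against 15.8, 38.4 and 19.7 CPM in untreated cells (log2 change 2.52 ± 0.24, adjusted p = 9.0e-08). Hpgd, which inactivates prostaglandins, fell, with 22.8, 6.65 and 24.3 CPM after IFN-γ, against 110.3, 29.7 and 106 CPM in untreated cells (log2 change -2.10 ± 0.22, adjusted p = 2.9e-07). Its adjusted p without the block was 0.074. Ptger4, a prostaglandin E2 receptor, rose by 1.29 ± 0.29 with overlapping libraries (adjusted p = 0.057 without the block, 0.053 without R1 and 0.057 without R3 in all groups), and Ptger2, another, fell (-0.99 ± 0.18). Alox5ap (0.04 ± 0.08) and Ptges2 (-0.17 ± 0.11) were not called.

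In central metabolism single steps moved while most members of each pathway changed little. Idh1, cytosolic isocitrate dehydrogenase, fell, with 80.5, 114 and 98.8 CPM after IFN-γ, against 368, 332 and 364 CPM in untreated cells (log2 change -1.86 ± 0.11, adjusted p = 3.9e-10). It was the only one of 27 citric acid cycle genes past a log2 of 1. Fh1 (0.64 ± 0.09) and Ogdh (0.40 ± 0.08) rose by small steps, and Ogdh was not called in CPM recomputed without Rn45s and Lars2 (0.09, adjusted p = 0.36). Over the list 6 rose (22.2%) and 5 fell (18.5%), both below the 32.5% and 30.8% of all genes tested. The counts were 1 and 18 in CPM recomputed without Rn45s and Lars2, and 2 and 2 without the block or without R3 in all groups. Of 50 oxidative phosphorylation genes 26 rose and 0 fell, but 4 and 14 in CPM so recomputed, and 12 rose without R3 in all groups. Without the block 11 rose, and only Cycs, cytochrome c, passed a log2 of 1 (1.21 ± 0.12).

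Of 27 genes of glycolysis and glucose uptake 17 rose and 3 fell, or 11 and 8 in CPM recomputed without Rn45s and Lars2 and 10 and 1 without the block. Slc2a1, the glucose carrier GLUT1, had 208, 108 and 159 CPM after IFN-γ, against 32.9, 33.7 and 31.2 CPM in untreated cells (log2 change 2.20 ± 0.14, adjusted p = 4.4e-10). Hk3, a hexokinase, had 1127, 963 and 1111 CPM after IFN-γ, against 191, 373 and 240.2 CPM in untreated cells (log2 change 2.04 ± 0.19, adjusted p = 5.5e-08). The groups did not overlap. Pfkp (2.15 ± 0.23), the carrier Slc2a6 (2.06 ± 0.11) and Hk2 (1.90 ± 0.27) rose, and Aldoa (-0.03 ± 0.08) and Pgk1 (0.25 ± 0.12) were not called. Past a log2 of 1, 9 rose and 1 fell.

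Of the tRNA synthetases, Wars rose the most. This enzyme, for tryptophan, had 747, 378 and 798 CPM after IFN-γ, against 47.3, 50.6 and 42.6 CPM in untreated cells (log2 change 3.68 ± 0.21, adjusted p = 1.5e-10). Farsa (1.66 ± 0.07), Kars (1.5 ± 0.08), Yars (1.34 ± 0.13) and Rars (1.25 ± 0.09) rose by less, and Hars (0.03 ± 0.06) and Dars (0.14 ± 0.09) were not called. These 5 were the only ones of 21 past a log2 of 1. All calls came to 10 up (47.6%) and 5 down (23.8%), beside 32.5% and 30.8% of all genes tested. The counts were 8 and 9 in CPM recomputed without Rn45s and Lars2 and 7 and 0 without the block, and 3 fell without R1 in all groups. Upp1, uridine phosphorylase, which salvages uracil, had 82.3, 44.0 and 38.3 CPM after IFN-γ, against 0.0812, 0.478 and 0.161 CPM in untreated cells (log2 change 5.43 ± 0.21, adjusted p = 1.6e-12), without overlap.

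Iron and antioxidant genes moved in both directions. Hmox1, which degrades haem, had 113, 87.7 and 62.3 CPM after IFN-γ, against 417, 288 and 248 CPM in untreated cells (log2 change -1.85 ± 0.15, adjusted p = 1.1e-08). Slc40a1, ferroportin, the iron exporter, had 37.5, 42.5 and 24.1 CPM after IFN-γ, against 204, 86.4 and 147 CPM in untreated cells (log2 change -1.99 ± 0.27, adjusted p = 6.2e-06). Gclc, of glutathione synthesis, had 14.9, 12.6 and 10.5 CPM after IFN-γ, against 37.7, 36.5 and 32.0 CPM in untreated cells (log2 change -1.42 ± 0.09, adjusted p = 3.2e-10). In each the highest IFN-γ library lay below the lowest untreated one. Srxn1 (-1.35 ± 0.08) and Steap3 (-1.60 ± 0.13) also fell. Sod2, mitochondrial superoxide dismutase, rose, with 875, 215 and 403 CPM after IFN-γ, against 90.8, 43.6 and 43.8 CPM in untreated cells (log2 change 2.90 ± 0.21, adjusted p = 3.5e-09), and Steap4, a metalloreductase, rose by 2.77 ± 0.33. Of 19 iron genes 6 rose (31.6%) and 8 fell (42.1%), or 4 and 12 in CPM recomputed without Rn45s and Lars2 and 3 and 6 without the block. Of 24 oxidase and antioxidant genes 8 rose (33.3%) and 9 fell (37.5%), or 5 and 13 when so recomputed and 4 and 7 without the block, and 5 rose without R3 in all groups or without IFN-γ R1. The rises stood near the 32.5% of all genes tested, and the falls were above the 30.8%. Fth1 (-0.31 ± 0.14), Slc11a1 (0.12 ± 0.10), Prdx1 (0.13 ± 0.12) and Cyba (0.25 ± 0.11) were not called.

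Of 19 genes of cholesterol efflux and oxysterols 5 rose (26.3%) and 10 fell (52.6%), beside 32.5% and 30.8% of all genes tested. These counts became 4 and 13 in CPM recomputed without Rn45s and Lars2 and 4 and 5 without the block. Ch25h, which makes 25-hydroxycholesterol, had 135, 168 and 193 CPM after IFN-γ, against 1.06, 3.34 and 1.70 CPM in untreated cells (log2 change 5.83 ± 0.29, adjusted p = 3.1e-11). Abca1, the cholesterol exporter, fell, with 101, 87.3 and 52.8 CPM after IFN-γ, against 435, 248 and 309.9 CPM in untreated cells (log2 change -2.04 ± 0.19, adjusted p = 5.7e-08), and Rxra, a nuclear receptor partner, fell (-1.57 ± 0.11). The 2 groups did not overlap in these 3 genes. Of 23 cholesterol synthesis genes 6 rose (26.1%) and 5 fell (21.7%), both below the shares of all genes tested, with Pmvk alone past a log2 of 1 (2.43 ± 0.22). The counts were 4 and 11 in CPM recomputed without Rn45s and Lars2 and 2 and 0 without the block. The rises depended on R2: without R2 in all groups 12 rose, 4 of them past a log2 of 1, and without IFN-γ R2 or untreated R2 alone 3 passed it. Without R1 in all groups 3 rose, and without R3 in all groups 3 rose and 3 fell. Insig1 (0.07 ± 0.18) and Hmgcs1 (-0.16 ± 0.18) were not called.

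Cell-death genes rose in 32 of 42 cases and fell in 3. Casp4, the caspase that senses lipopolysaccharide in the cytosol, had 407, 292 and 291 CPM after IFN-γ, against 36.2, 30.9 and 20.3 CPM in untreated cells (log2 change 3.48 ± 0.16, adjusted p = 8.4e-12). Zbp1, a sensor that starts necroptosis, had 501, 391 and 387 CPM after IFN-γ, against 23.5, 49.5 and 17.9 CPM in untreated cells (log2 change 3.89 ± 0.31, adjusted p = 9.3e-09). Mlkl, the pore former of necroptosis, had 173, 125 and 126 CPM after IFN-γ, against 14.9, 25.4 and 13.8 CPM in untreated cells (log2 change 2.94 ± 0.24, adjusted p = 1.2e-08). All 3 were separated between groups. Casp12 (4.30 ± 0.13) and the death receptor Fas (3.32 ± 0.18) rose, and Xiap, an inhibitor of caspases, was not called (0.16 ± 0.10).

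**Figure D3:**
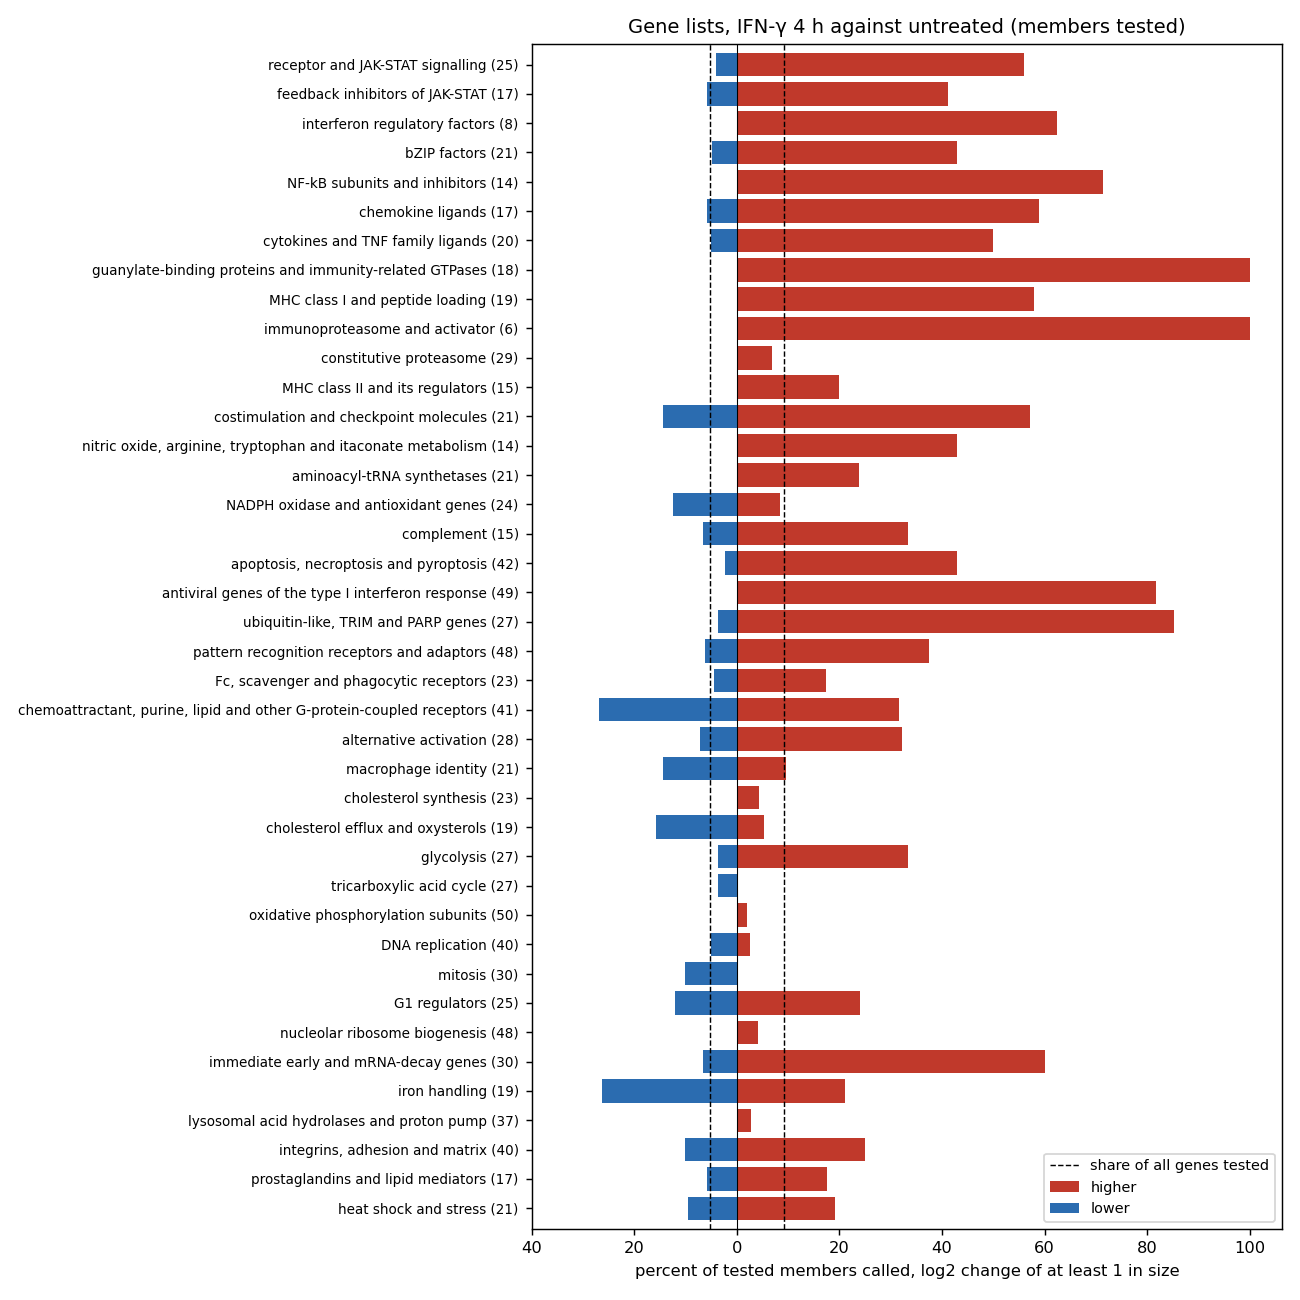
For each gene list, red bars give the percent of tested members (number in brackets) that rose and blue bars the percent that fell by a log2 of at least 1 at an adjusted p under 0.05; dashed lines mark the same shares over all genes tested, 9.19% and 5.16%. Guanylate-binding proteins with immunity-related GTPases and the immunoproteasome reach 100%, and the G-protein-coupled receptors have bars on both sides, 13 of 41 higher and 11 of 41 lower.

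The largest fall was that of S1pr1, the receptor for sphingosine 1-phosphate that guides cells out of tissue (chromosome 3, 115710433 to 115715072). It had 2.52, 2.67 and 1.51 CPM after IFN-γ, against 115, 89.1 and 115 CPM in untreated cells (log2 change -5.06 ± 0.28, adjusted p = 1.2e-10). Lhfpl2, a membrane protein, had 11.5, 18.4 and 5.50 CPM after IFN-γ, against 379, 319 and 309 CPM in untreated cells (log2 change -4.85 ± 0.25, adjusted p = 5.2e-11). Cd300lb, an activating receptor of myeloid cells, had 23.9, 65.3 and 26.5 CPM after IFN-γ, against 396, 356 and 367 CPM in untreated cells (log2 change -3.39 ± 0.22, adjusted p = 8.6e-10). Separated libraries were a condition for being named among the largest falls, as among the largest rises, so their separation is no added result. Gpr183, the receptor of the oxysterol 7α,25-dihydroxycholesterol, fell, with 1.56, 7.63 and 2.53 CPM after IFN-γ, against 29.0, 39.8 and 32.5 CPM in untreated cells (log2 change -3.01 ± 0.22, adjusted p = 3.2e-09). Other leading falls were Abcd2, a peroxisomal carrier (-3.50 ± 0.17), Arrdc3, an arrestin relative (-3.32 ± 0.13), Slco2b1, an organic anion carrier (-3.28 ± 0.31), Rasgrp3, a Ras activator (-3.02 ± 0.11), Arhgap22, a GTPase-activating protein (-3.02 ± 0.13), and Xylt2, of proteoglycan synthesis (-3.10 ± 0.22). Ypel2 (-3.14 ± 0.12), Slc26a11 (-3.13 ± 0.17) and Samd4 (-3.06 ± 0.29) completed the set with Nav2 and Zdhhc14, given below.

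G-protein-coupled receptors went both ways, with 20 up (48.8%) and 16 down (39.0%) of 41, beside 32.5% and 30.8% of all genes tested. Hcar2, the receptor for niacin and hydroxybutyrate, had 274, 60.9 and 159 CPM after IFN-γ, against 3.98, 1.25 and 1.45 CPM in untreated cells (log2 change 5.53 ± 0.26, adjusted p = 1.5e-11). Ccrl2, which binds chemerin, had 388, 78.6 and 225 CPM after IFN-γ, against 21.6, 7.70 and 12.8 CPM in untreated cells (log2 change 3.78 ± 0.29, adjusted p = 6.7e-09). Both rose in every replicate number. Gpr132 (3.43 ± 0.22) and Lpar1 (3.17 ± 0.29) rose as well. Cx3cr1, the fractalkine receptor of monocytes and macrophages, fell, with 2.08, 6.50 and 1.99 CPM after IFN-γ, against 22.8, 27.2 and 53.0 CPM in untreated cells (log2 change -3.01 ± 0.31, adjusted p = 2.4e-07). P2rx4 (0.02 ± 0.12) and Ccr2 (0.11 ± 0.18) were not called.

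Macrophage identity genes were mixed: 4 rose and 11 fell of 21, with a median of -0.26, or 4 and 16 in CPM recomputed without Rn45s and Lars2 and 3 and 4 without the block. Csf1r was not called (log2 change 0.05 ± 0.10, adjusted p = 0.69), nor was lysozyme Lyz2 (-0.33 ± 0.15) or the integrin chain Itgam (-0.12 ± 0.07). Mitf, a factor of lysosome genes, fell, with 46.7, 29.4 and 31.8 CPM after IFN-γ, against 94.8, 78.6 and 79.8 CPM in untreated cells (log2 change -1.23 ± 0.11, adjusted p = 4.0e-08), and its relative Tfec rose by 1.38 ± 0.16. Of 28 genes of alternative activation 12 rose (42.9%) and 6 fell (21.4%), beside 32.5% and 30.8% of all genes tested, or 10 and 6 when so recomputed and 9 and 2 without the block. The leaders Clec10a (2.64 ± 0.25) and Tgm2 (2.42 ± 0.17) rose. Past a log2 of 1, 9 of the alternative activation genes rose and 2 fell. Of 37 lysosomal genes 16 rose (43.2%) and 7 fell (18.9%), or 3 and 15 when so recomputed and 5 and 0 without the block, with Ctsc, cathepsin C, alone past a log2 of 1 (1.79 ± 0.13). Without R1 in all groups 8 and 4 of them were called, and without R3 in all groups 9 and 3.

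Adhesion genes that rose included Itga4, an integrin chain of VLA-4 (2.30 ± 0.13), its ligand Vcam1 (2.76 ± 0.42), and Mmp13, a collagenase (3.37 ± 0.31). Of the 40 in the list 18 rose (45%) and 10 fell (25%), beside 32.5% and 30.8% of all genes tested. The counts were 14 and 15 in CPM recomputed without Rn45s and Lars2 and 11 and 6 without the block. Clic5, an intracellular chloride channel protein, had 81.6, 59.3 and 83.3 CPM after IFN-γ, against 0.649, 0.537 and 0.562 CPM in untreated cells (log2 change 5.56 ± 0.12, adjusted p = 1.4e-15), with no overlap. Lck, a kinase of T cells listed as a T-cell marker, rose, with 14.9, 10.3 and 7.60 CPM after IFN-γ, against 0.162, 0.657 and 0.254 CPM in untreated cells (log2 change 3.11 ± 0.20, adjusted p = 6.4e-10), while Cd4 was at 17.4, 2.03 and 15.3 CPM after IFN-γ, against 26.1, 4.60 and 17.5 CPM in untreated cells. Clec9a, listed for dendritic cells, rose by 1.56 ± 0.19. Of the 11 neutrophil genes 6 rose, none by a log2 of 1, and their part in other results was not tested.

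Of 21 heat shock and stress genes 12 rose and 3 fell, 4 and 2 of them by a log2 of at least 1, or 9 and 7 called in CPM recomputed without Rn45s and Lars2. Past a log2 of 1, 1 rose without R3 in all groups and 2 without untreated R3, while 0 fell without R1 in all groups and 1 fell without IFN-γ R1, IFN-γ R2 or untreated R1. The chaperones Hspa5 (1.09 ± 0.12) and Hspa8 (1.08 ± 0.09) and the growth-arrest gene Gadd45b (2.39 ± 0.21) rose, and Sesn2 (-1.10 ± 0.15) and Gadd45a (-1.06 ± 0.27) fell. Noc4l, of ribosome assembly, had 119, 100.4 and 96.3 CPM after IFN-γ, against 12.1, 14.6 and 11.5 CPM in untreated cells (log2 change 2.95 ± 0.12, adjusted p = 1.9e-12), without overlap. The other 47 genes of ribosome biogenesis stayed within a narrower range, with Rrp12 next (1.17 ± 0.13). All 48 gave 17 rises (35.4%) and 12 falls (25%), beside 32.5% and 30.8% of all genes tested. The counts were 6 and 23 in CPM recomputed without Rn45s and Lars2, 9 and 5 without the block, and 10 and 7 without R1 in all groups, and 8 rose without R3 in all groups. Myc, a driver of this program, was at 2.47, 2.27 and 1.54 CPM after IFN-γ, against 3.38, 4.06 and 2.37 CPM in untreated cells (log2 change -0.46 ± 0.13, adjusted p = 0.0046). The libraries overlapped, and its adjusted p was 0.12 without the block and 0.22 without untreated R2 and R3, and it was not called in the CPM as deposited.

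Of 25 regulators of the first phase of the cell cycle 10 rose (40%) and 10 fell (40%), beside 32.5% and 30.8% of all genes tested, or 6 and 6 without the block. Cdkn1a, the inhibitor p21, had 1142, 339 and 918 CPM after IFN-γ, against 58.3, 72.3 and 61.0 CPM in untreated cells (log2 change 3.46 ± 0.24, adjusted p = 2.0e-09). Ccnd2, cyclin D2, had 47.3, 57.4 and 38.3 CPM after IFN-γ, against 1.98, 10.0 and 3.76 CPM in untreated cells (log2 change 3.16 ± 0.26, adjusted p = 1.7e-08). Mxd1, a partner of MAX that opposes MYC, had 355, 127 and 242 CPM after IFN-γ, against 33.0, 22 and 26.5 CPM in untreated cells (log2 change 3.0 ± 0.17, adjusted p = 1.3e-10). The libraries of the groups were separated in all 3. Rbl1, the pocket protein p107, rose by 2.27 ± 0.27, and Mxd4, a relative of Mxd1, fell, with 8.86, 11.8 and 13.2 CPM after IFN-γ, against 45.6, 35.2 and 43.9 CPM in untreated cells (log2 change -1.80 ± 0.12, adjusted p = 1.3e-09).

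Replication and mitosis genes fell in part, on top of a large difference between replicate numbers. Of 40 replication genes 4 rose and 26 fell, and of 30 mitosis genes 0 rose and 12 fell. Without the block 1 and 2 replication genes and 0 and 0 mitosis genes were called, and in CPM recomputed without Rn45s and Lars2 2 and 33 replication genes and 0 and 24 mitosis genes. Without R3 in all groups 11 replication and 4 mitosis genes fell, and without R2 in all groups, or without untreated R2, 19 mitosis genes fell. Mcm7, of the replicative helicase, had 3.26, 39.4 and 4.5 CPM after IFN-γ, against 10.7, 52.7 and 22.5 CPM in untreated cells (log2 change -1.32 ± 0.25, adjusted p = 2.2e-04). Cdk1, the mitotic kinase, had 3.62, 59.4 and 7.60 CPM after IFN-γ, against 8.47, 74.5 and 27.6 CPM in untreated cells (log2 change -1.03 ± 0.20, adjusted p = 2.2e-04). R2 was the highest library of both groups in these genes, and the groups overlapped. Incenp, of the chromosomal passenger complex, fell (-1.35 ± 0.21). Mki67 (-0.09 ± 0.45) and Top2a (-0.22 ± 0.26) were not called. Pola2, a polymerase subunit, went the other way, with 57.8, 51.4 and 49.4 CPM after IFN-γ, against 17.6, 22 and 18.4 CPM in untreated cells (log2 change 1.41 ± 0.08, adjusted p = 2.3e-10), and did not overlap.

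**Figure D4:**
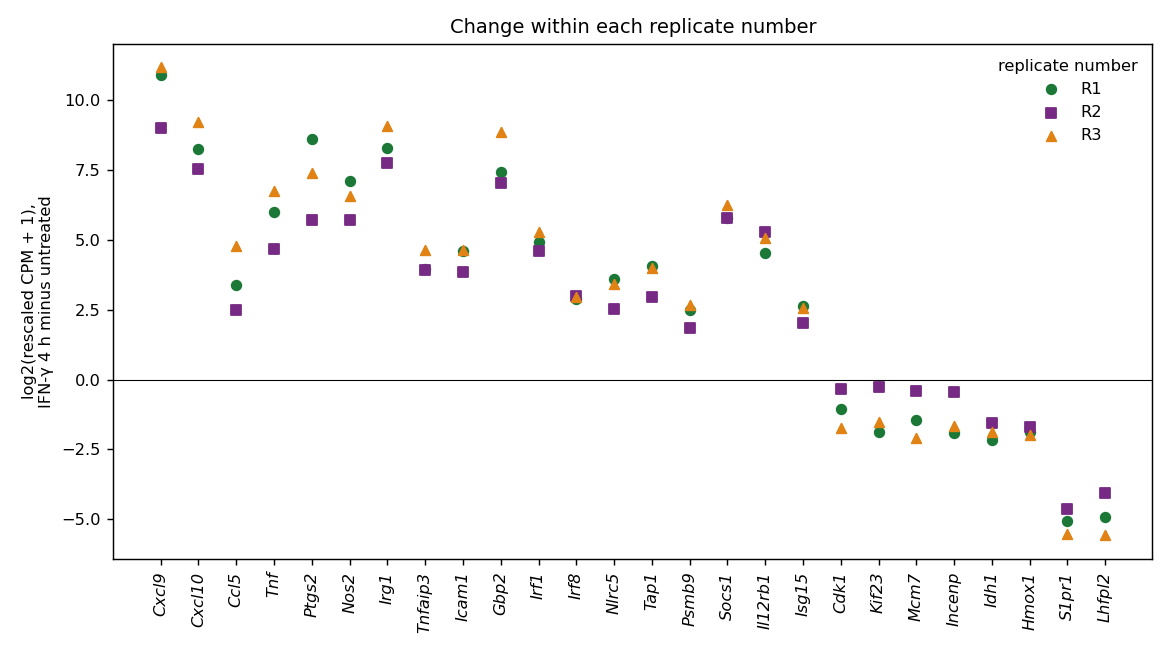
Difference in log2(rescaled CPM + 1) between IFN-γ at 4 h and untreated within each replicate number, for 26 genes. R2 (squares) gives the smallest rise for Cxcl9, Tnf and Ptgs2, while S1pr1 and Lhfpl2 fall in all 3 and Cdk1, Mcm7 and Incenp stay nearest to 0 in R2.

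Replicate R2 showed smaller changes over many genes. Of the 1046 genes that rose by a log2 of at least 1, R2 gave the smallest change in 819, R1 in 111 and R3 in 116. Median changes of these genes were 1.84 in R1, 1.36 in R2 and 1.70 in R3. Among the 587 that fell, R2 gave the smallest change in 408, and the medians were -1.54, -1.18 and -1.39. For Cxcl9 the changes were 10.90, 9.02 and 11.17, for Tnf 6.00, 4.68 and 6.73, and for Ptgs2 8.62, 5.72 and 7.38. Since both R2 libraries enter each change, its source was not tested.

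Many genes stood at a different level at 4 h than at 2 h, in both directions. At 4 h 2635 genes were higher (23.2%) and 2512 lower (22.1%) than at 2 h, with 409 (3.59%) and 171 (1.5%) past a log2 of 1. Without the block the counts were 1125 and 884, in the deposited CPM 812 and 1755, in CPM recomputed without Rn45s and Lars2 1486 and 4296, and without R3 in all groups 1393 and 1238. Of the 1046 genes that had risen over untreated cells, 772 were higher at 4 h than at 2 h, 39 lower, and 235 not called. Of the 587 that had fallen, 450 were lower still and 18 higher. Selecting genes on the same 4 h libraries favours the direction of further change. Of the inhibitors, Socs1 was at 107, 92.2 and 86.5 CPM at 2 h and did not differ by the test (4 h minus 2 h 0.25 ± 0.19, adjusted p = 0.31), nor did Socs3 (0.32 ± 0.27) or Cish (-0.23 ± 0.20). Il4ra was lower at 4 h than at 2 h (-0.59 ± 0.18, adjusted p = 0.011).

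The 8 largest rises after 2 h were those of Ptgs2, Clic5, Nos2, Upp1, Gbp4, Il12rb1, Ccl5 and Tnf. Ptgs2 was at 9.05, 1.43 and 2.77 CPM at 2 h (4 h minus 2 h 5.60 ± 0.39, adjusted p = 1.4e-08). Clic5 was at 0.818, 0.670 and 1.26 CPM at 2 h, close to its untreated level (4 h minus 2 h 5.30 ± 0.12, adjusted p = 6.5e-15). Nos2 (4.63 ± 0.21), Upp1 (3.85 ± 0.21), Gbp4 (3.58 ± 0.22), Il12rb1 (3.53 ± 0.12), Ccl5 (3.42 ± 0.32) and Tnf (3.41 ± 0.31) were also higher at 4 h than at 2 h. Falls after 2 h included genes that had stood near their untreated level. Nav2, a cytoskeletal navigator protein, had 4.75, 10.9 and 4.66 CPM after IFN-γ, against 64.4, 101 and 70.2 CPM in untreated cells, and 76.3, 84.9 and 46.1 CPM at 2 h (4 h minus 2 h -3.22 ± 0.18, adjusted p = 1.1e-09). Zdhhc14, a palmitoyl transferase, had 7.76, 5.09 and 7.41 CPM after IFN-γ, against 98.3, 40.3 and 80.7 CPM in untreated cells, and 89.7, 35.1 and 81.2 CPM at 2 h (4 h minus 2 h -3.08 ± 0.20, adjusted p = 6.6e-09). Bmf, a cell-death activator (-2.51 ± 0.19), Ldlrad3 (-2.43 ± 0.31) and Ncapg2, a condensin subunit (-2.18 ± 0.17), were likewise lower at 4 h than at 2 h. Cd300lb, by contrast, was at 30.0, 30.5 and 29.5 CPM by 2 h and did not differ at 4 h by the test (0.20 ± 0.22).

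**Figure D5:**
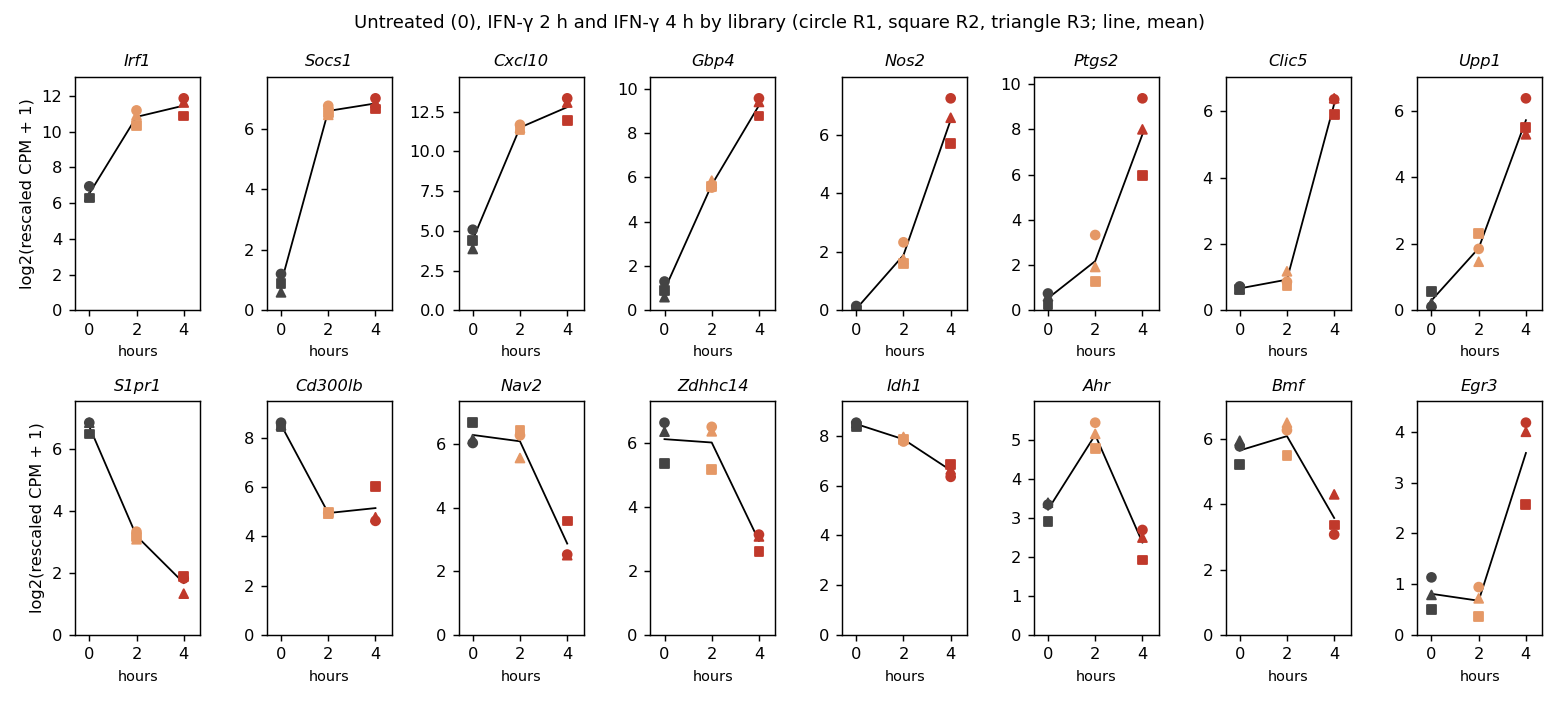
Levels of 16 genes as log2(rescaled CPM + 1) in untreated cells (0 h) and after IFN-γ for 2 h and 4 h, each point 1 library and the line the mean. Socs1 and Irf1 stand close to their 4 h level at 2 h, Ptgs2, Nos2, Clic5 and Upp1 rise mainly after 2 h, Cd300lb falls by 2 h, Nav2 and Zdhhc14 after 2 h, and Ahr stands higher at 2 h than at either other point.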

How the data were processed

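The authors deposited CPM per gene for 21 libraries; per the submitters' processing notes reads were handled with TopHat2 2.1.0, HTSeq and edgeR on mm10 (GRCm38). With 1 read set to the lowest positive value of its library, 100% of values were whole reads within 0.01 read. The other 24 samples carry hairpin constructs and are not analysed here. CPM were rescaled by median ratios over 13025 genes, and log2(CPM + 1) went into a linear model (R 4.3.3, limma 3.58.1) of group means plus the replicate number as a block (12 residual degrees of freedom, two-sided, Benjamini-Hochberg over the 11380 genes in each of 2 contrasts). The numbers pair the libraries: deviations from group means correlated at 0.54 to 0.95 in 63 same-number pairs, and at 0.37 at most otherwise. Recovery of known changes was tested on simulated data. Genes, 49 gene lists and tests were chosen with earlier results of these data known. Named genes were the 14 fixed ones, the 15 largest rises and falls without overlap and with at least 5 CPM, the 8 largest each way against 2 h, and up to 5 called and 2 uncalled members per list; a few of these are not reported here. Coordinates are GENCODE mouse release 21 (GRCm38). edgeR 4.0.16 and DESeq2 1.42.0 on recovered reads, other scalings, pseudocounts, filters and left-out libraries were alternatives.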

Additional observations from a re-analysis of the deposited data

Results flagged for a closer look

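Ahr, the aryl hydrocarbon receptor, stood on opposite sides of its untreated level at the 2 times. It had 5.46, 2.78 and 4.64 CPM after IFN-γ for 4 h, 42.6, 26.8 and 34.7 CPM after 2 h and 9.14, 6.51 and 9.49 CPM in untreated cells. All 3 libraries at 2 h lay above, and all 3 at 4 h below, every untreated one. It fell at 4 h (log2 change -0.85 ± 0.13, adjusted p = 3.2e-05), and limma's test of the difference gave 4 h minus 2 h -2.77 ± 0.13, adjusted p = 2.2e-10. The call of the fall at 4 h was lost without the block (adjusted p = 0.06).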

How the results depend on the processing

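Against untreated cells, 3701 genes rose and 3502 fell. Without the replicate block 2429 rose and 2029 fell; as deposited 2743 and 1572; as deposited without the block 2014 and 869; in CPM recomputed without Rn45s and Lars2 2060 and 6147. Past a log2 of 1, 587 genes fell, with 1062 in CPM so recomputed, 947 by edgeR and 937 by DESeq2. The other alternatives stayed within 1.5 times, and leaving out libraries gave 2689 to 3830 rises and 2565 to 3488 falls (968 to 1174 and 518 to 685 past a log2 of 1). Against 2 h, 2635 genes were higher and 2512 lower. These became 1125 and 884 without the block, 812 and 1755 as deposited, 359 and 556 as deposited without the block, and 1486 and 4296 when recomputed. Leaving out libraries gave 1393 to 2966 higher and 1238 to 2548 lower (1624 lower without R1 in all groups). Past a log2 of 1, 409 were higher and 171 lower, with 233 higher as deposited without the block, and 275 (as deposited), 273 (recomputed), 286 (pseudocount 0.1), 335 (edgeR) and 315 (DESeq2) lower. Single genes that changed sign and were called before or after the change were, in CPM recomputed without Rn45s and Lars2, Csf1r (-0.26), Irf9 (-0.27), Alox5ap (-0.28), Hars (-0.28), P2rx4 (-0.29) and Psmd2 (-0.19); Ccl3 without R2 in all groups (0.46) or without IFN-γ R2 (0.40), within a range of -0.62 to 0.46 over left-out libraries; and, without untreated R2 and R3, Rn45s (0.76), Lars2 (0.67), Rmrp (0.50) and Rpph1 (0.86). The cause was not tested. In the rescaled CPM the replicate block changed the calls of the genes for which a p without it is given above. It also changed those of Cd4, Cdk1, Incenp, Mcm7 and Rpph1, and of no other named gene. As deposited without the block, limma's calls of Cebpa (adjusted p = 0.11), Gadd45a (0.093) and Sesn2 (0.12) were lost too. Genes with a few reads per library, such as Nos2 in untreated cells, have folds limited by counting.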
